A study of Mus musculus with 300 samples.

Results

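Among 300 adult mouse spermatogonia sorted for an ID4-EGFP reporter, 207 had Kit under 1 FPKM, a length-scaled measure of transcript level. Of these 207, the 78 cells with Sox3 or Neurog3 at 1 FPKM or more are described here and set against the 129 cells with both genes under 1 FPKM. The Sox3 or Neurog3 cells numbered 14, 31, 13 and 20 in preparations 1, 2, 3 and 4, and the cells with neither gene numbered 37, 33, 35 and 24. Sox3 chose most of the members: 57 cells passed on Sox3 alone, 11 on Neurog3 alone and 10 on both. Kit-negative is used here for Kit under 1 FPKM only. The other 93 cells had Kit at 1 FPKM or more, and 44 of them also had Sox3 or Neurog3 while 49 had neither. All cells came from untreated adult mice that carried the EGFP reporter, which follows the Id4 locus, so every class holds only EGFP-positive, CD9-bright sorted cells. Each preparation pooled testes of at least 2 mice, and cells of several animals cannot be separated within it. Per cell, 2934 to 7817 genes (median 5501) stood at 1 FPKM or more.

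Spermatogonial stem cells of the mouse testis renew themselves and give rise to progenitors that are primed to differentiate. SOX3, an SRY-related transcription factor, and NEUROG3, a basic helix-loop-helix factor also known for making endocrine cells in pancreas and gut, are both known from progenitor spermatogonia. KIT, the receptor for stem cell factor, is switched on when spermatogonia commit to differentiation under retinoic acid, while GFRA1, ID4, ETV5 and TCL1 are linked to stem cells and to GDNF, the niche factor that sustains them. The comparison therefore asks what else differs, among cells with Kit under 1 FPKM, between those above and those below the same level of a progenitor transcript.

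The stretch around the Neurog3 start is shown because Neurog3 is one gene of the rule and SOX factors, to which the product of the other belongs, bind a known motif that can be searched there. That of Pxt1 is shown because Pxt1 was the gene that passed the test between the classes. Both are 300 bases from RefSeq (GRCm38.p6), 250 before and 50 after the annotated start, at chr10:62132840-62133139 on the plus strand for Neurog3 and at chr17:28942213-28942512 on the minus strand for Pxt1. Capitals mark a SOX motif. The Pxt1 stretch lies inside the span given for this gene below, which reaches to 28943840. It therefore does not cover the outermost end of Pxt1, where no motif was searched.
Neurog3: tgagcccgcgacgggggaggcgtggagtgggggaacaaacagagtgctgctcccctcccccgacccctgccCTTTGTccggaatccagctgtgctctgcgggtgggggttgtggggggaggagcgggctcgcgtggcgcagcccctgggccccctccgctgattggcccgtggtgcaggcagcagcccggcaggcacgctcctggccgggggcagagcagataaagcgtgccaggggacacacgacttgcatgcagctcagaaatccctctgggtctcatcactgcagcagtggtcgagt
Pxt1: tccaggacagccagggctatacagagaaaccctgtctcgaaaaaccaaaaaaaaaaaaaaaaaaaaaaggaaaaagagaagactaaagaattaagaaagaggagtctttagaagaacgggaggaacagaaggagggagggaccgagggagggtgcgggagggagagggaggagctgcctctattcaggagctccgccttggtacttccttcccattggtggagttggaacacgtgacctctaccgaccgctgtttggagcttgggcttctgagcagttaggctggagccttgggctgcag
The SOX motif was searched as AACAAT or ACAAAG and the E-box read by neurogenin factors as CAGATG, each on both strands. The Neurog3 stretch held 1 SOX match and no E-box match, and the Pxt1 stretch held neither. Of 32851 such stretches in the RefSeq table, 27% held the SOX motif and 17.2% the E-box.

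The rule's own genes ranged widely within the class. Sox3 (chrX:60891366-60893430, minus strand, a gene of 1 annotated transcript) stood at 1 FPKM or more in 67 Kit-negative cells, with a lowest value of 1.01, a median of 7.11 and a highest of 190 FPKM. Neurog3 (chr10:62133090-62134763, plus strand) passed in 21 cells, from 1.04 through a median of 25.6 to 478 FPKM. An exon of Fam241b overlaps Neurog3 on the opposite strand, and the SMARTer library does not mark strand, so reads of the pair cannot be told apart there. By their higher gene, 48 of the 78 members stood at 5 FPKM or more and 14 under 2 FPKM. The members nearest the threshold had 1.01, 1.04 and 1.04 FPKM, and the nearest cells outside it had 0.978, 0.947 and 0.896 FPKM. Only 10 of the 129 cells with neither gene had a value above 0 for one of them. Near the threshold a value rests on few molecules: by the depth estimated from the FPKM steps, 10 of the 67 Sox3 values and 5 of the 21 Neurog3 values correspond to under 2.5 sequenced fragments. Mean Kit, on the log2(FPKM + 1) scale used for all levels from here on, was 0.06 ± 0.04 in Sox3 or Neurog3 cells and 0.05 ± 0.05 in cells with neither (SD, n = 4 preparations). The classes were chosen by these measured values of Sox3, Neurog3 and Kit, which are given as a description.

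**Figure D1:**
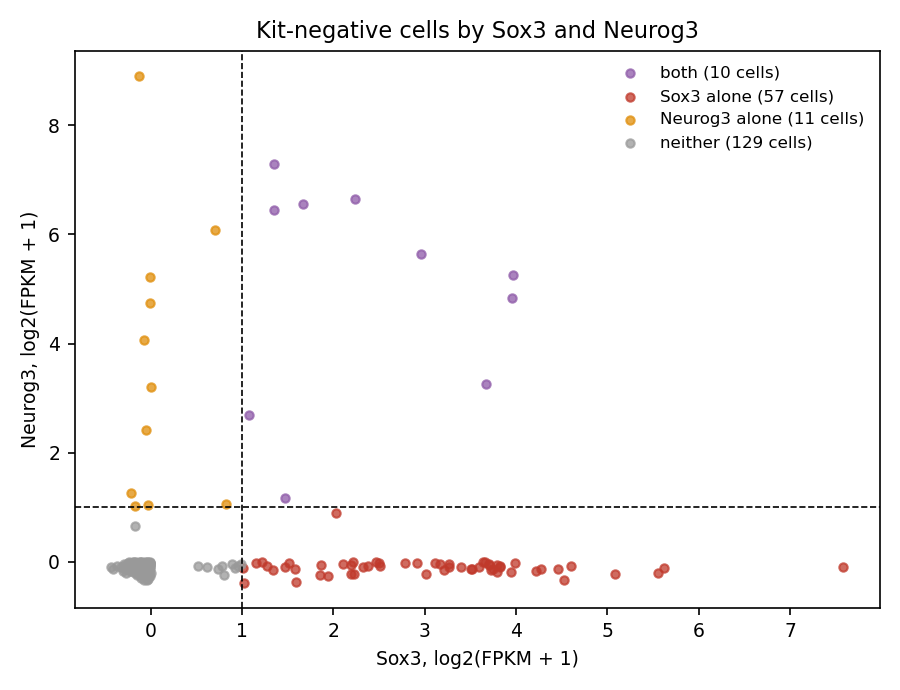
Level of Neurog3 against level of Sox3, both as log2(FPKM + 1), in each of the 207 Kit-negative cells; points are cells, colours the 4 kinds of cell and dashed lines the threshold of 1 FPKM. Values listed at 0 are spread out below 0 so that points can be seen. The 10 cells with both genes lie in the upper right, and most members, 57, lie along the Sox3 axis.

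Genes detected and depth were compared first, since either could decide which cells pass 1 FPKM. Sox3 or Neurog3 cells had 4428, 5658, 5331 and 6184 genes at 1 FPKM or more in preparations 1 to 4, against 4255, 5640, 5309 and 5713 in cells with neither. The members were higher in 4 of 4 preparations, by 171 genes on average (SD 212), and the exact two-sided sign-flip test gave p = 0.125, the smallest that 4 preparations allow. Preparation 4 carried much of this, since the difference was 71.5 genes without it. Estimated fragments per cell averaged 784119 ± 122447 in Sox3 or Neurog3 cells and 798968 ± 120515 in cells with neither (SD, n = 4; higher in 1 of 4 preparations; exact sign-flip p = 0.5). In the label check against other testis cell types, 2 macrophage-like and 1 spermatid-like member matched, against 3 macrophage-like, 1 peritubular-like and 1 pachytene-like cell with neither, where a match needed at least 50% and at least 3 of a list's measured genes at 5 FPKM or more. Gata4 and Cldn11, 2 of 9 measured Sertoli genes, were listed at 0 in every Kit-negative cell. So were Cyp17a1 and Hsd3b1, 2 of 6 Leydig genes, and Esam, 1 of 6 endothelial genes. The other measured genes of these lists were above 0 in at least 1 such cell. Summed over each list, the mean level in members ran over preparations from 0.251 to 1.99 (Sertoli), 0.284 to 0.930 (Leydig) and 0.969 to 2.66 (endothelial). In cells with neither it ran from 0.823 to 1.18, 0.328 to 0.491 and 0.651 to 1.97. Summed over its 8 measured genes, the mean level of the macrophage or leukocyte list ran from 0.883 to 5.82 over the preparations in Sox3 or Neurog3 cells and from 0.683 to 5.83 in cells with neither. Its part in the results was not tested beyond leaving the matching cells out.

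Sox3 or Neurog3 cells were more frequent among dim than among bright EGFP cells. EGFP was measured by imaging on the chip and took no part in choosing the members. In Q4, the dimmest quartile, 21 of 38 Kit-negative cells were members, with shares of 50, 50, 55.6 and 100% in preparations 1 to 4; the last is 3 of 3 cells. Q3 held 19 of 48, with shares of 14.3, 64.3, 22.2 and 54.5%. In Q2 the count was 25 of 59, and the shares were 33.3, 52.9, 29.4 and 53.8%. Q1, the brightest, held 13 of 62, with 20.0, 29.4, 7.69 and 23.5%. The mean share was thus 63.9 ± 24.2% in Q4, 38.8 ± 24.3% in Q3, 42.4 ± 12.8% in Q2 and 20.2 ± 9.17% in Q1 (SD, n = 4). The shares in Q4 and Q1 did not overlap, and those in Q3 and Q2 reached values found in both.

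The share fell by 12.8 percentage points per step to the next brighter quartile, with preparations from -23.0 to -7.10, and relabelling the quartiles within each preparation gave an exact two-sided permutation p of 0.00227. The slope was -13.1 points (exact permutation p = 0.00469) with only Sox3 cells as members and -9.95 (exact permutation p = 0.0159) with only Neurog3 cells. Genes detected moved the other way, at 4962 ± 640 per Kit-negative cell in Q4, 5111 ± 726 in Q3, 5354 ± 836 in Q2 and 5592 ± 592 in Q1 (SD, n = 4). Among cells with Kit at 1 FPKM or more, the slope of the share was -2.17 points (-8.33 to 7.50 over preparations; exact permutation p = 0.609), and whether the slopes of Kit-negative and Kit-positive cells differ was not tested.

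**Figure D2:**
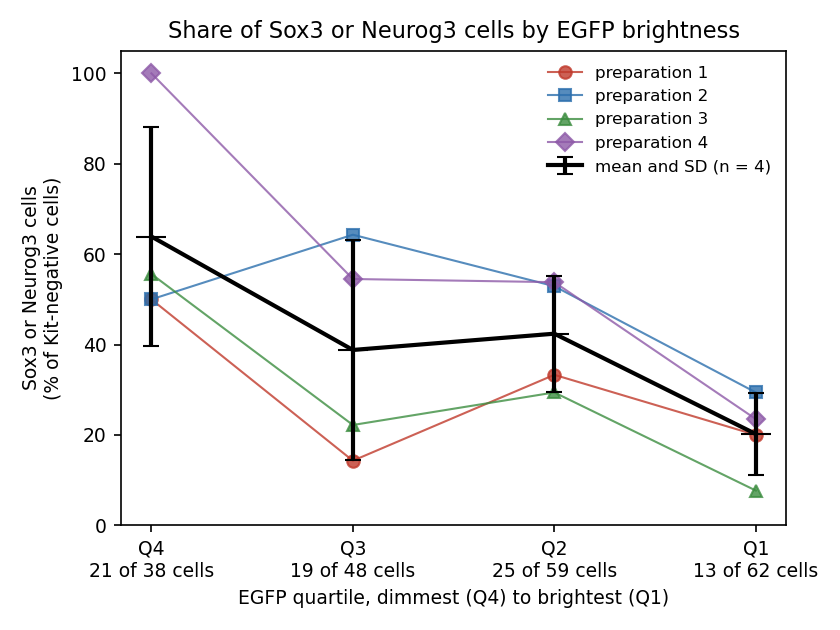
Share of Sox3 or Neurog3 cells among Kit-negative cells, in percent, by EGFP quartile from Q4 (dimmest) to Q1 (brightest); coloured points are the 4 preparations and the black line with bars is their mean and SD. The mean lies at 63.9% in Q4 and at 20.2% in Q1, and preparation 4 in Q4 rests on 3 cells.

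All other genes were then compared between the classes within preparation, with limma on the mean log2(FPKM + 1) of each class in each preparation and the preparation as a block. Of 10408 genes tested, 1 passed an adjusted p of 0.05 (0.00961%), and it was higher in Sox3 or Neurog3 cells. At an unadjusted p under 0.05, 516 genes were higher (4.96%) and 303 lower (2.91%), a balance that turned to 332 higher and 443 lower when the classes were standardised for genes detected per cell. In all 4 preparations 955 genes were higher (9.18%) and 659 lower (6.33%), and the median difference over all genes was 0.03. Centring each mean on the median gene gave 7 higher and 5 lower calls in place of 1 higher and 0 lower. So most genes named below did not pass, and their values are given as measured differences.

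Pxt1 (chr17:28933984-28943840, minus strand), a peroxisomal protein made in male germ cells, was the gene that rose. Its mean level was 5.75, 6.10, 7.26 and 6.49 in the Sox3 or Neurog3 cells of preparations 1 to 4, against 4.29, 4.77, 4.6 and 3.40 in cells with neither. The classes did not overlap: the lowest member mean, in preparation 1, was above the highest mean of the other class, in preparation 2. How many of all 10408 genes show no overlap was not counted. Here and below the trait is therefore given only as a description. The difference was 2.14 (SE 0.33, limma adjusted p = 0.0266, higher in 4 of 4 preparations), and the share of cells with at least 1 FPKM of Pxt1 was 88.8 ± 2.95% of members and 70 ± 6.16% of cells with neither (SD, n = 4). An exon of Gm16191 overlaps Pxt1 on the opposite strand, and reads of the pair cannot be told apart. The call was lost in 14 of 19 alternatives, among them leaving out preparation 1, 3 or 4, leaving out the preparation block, another filter on low values, and leaving out the 3 members and 5 other cells that matched other cell types. It was also lost when classes were standardised for genes detected and when cells were compared within EGFP quartiles, where the difference was 1.58 (limma adjusted p = 0.317, against 0.00385 to 0.862 over all alternatives); in that standardisation 15 of the 16 groups by preparation and quartile entered, since Q4 of preparation 4 held no cell with neither gene.

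Of the next genes on the higher side, Upp1 had the largest difference. These leading genes were chosen by the smallest p among genes with 1 sign in all 4 preparations, so that shared sign is no result. It encodes uridine phosphorylase, which salvages uridine. Upp1 stood at 4.70, 5.01, 7.09 and 5.65 in Sox3 or Neurog3 cells, against 3.39, 3.88, 2.62 and 3.07 in cells with neither, again without overlap (difference 2.37, SE 0.44, limma adjusted p = 0.0644). It was detected, at 1 FPKM or more, in 78.5 ± 11.5% of members and 54.2 ± 8.35% of cells with neither (SD, n = 4). Sohlh1, a basic helix-loop-helix factor needed for spermatogonial differentiation, had 6.52, 5.67, 6.59 and 5.57 in members, against 4.28, 5.17, 3.81 and 4.31 in cells with neither. All 4 member values were above all 4 others, with a difference of 1.70 (SE 0.35, limma adjusted p = 0.0758). Eif4ebp1, a repressor of cap-dependent translation that mTORC1 inactivates, had 7.10, 7.31, 7.30 and 6.77 in members, against 4.75, 5.90, 5.22 and 6.46 in cells with neither (difference 1.53, SE 0.29, limma adjusted p = 0.0644). Its SD over preparations was 0.25 in members and 0.75 in cells with neither.

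The other leading genes on this side, chosen by the same rule, also missed the threshold. Ly6g6e, a LY6 family surface protein whose exons overlap Ly6g6d on the other strand, was higher by 2.05 (SE 0.38, limma adjusted p = 0.0644) and was detected in 48.3 ± 5.56% of members and 20.9 ± 10.3% of cells with neither. Oasl2, an interferon-induced protein of the oligoadenylate synthetase family, was higher by 1.82 (SE 0.34, limma adjusted p = 0.0644). Nsmaf, an adaptor of the TNF receptor, had 3.63, 3.48, 3.75 and 4.0 in members against 1.83, 2.48, 1.94 and 1.94 in cells with neither; its exons overlap those of Sdcbp on the other strand. Fastkd2, a mitochondrial RNA-binding protein, was higher by 1.67 (SE 0.34, limma adjusted p = 0.0758). Nmt2, which attaches myristate to proteins, was detected in nearly every cell of both classes and was higher by 0.93 (SE 0.19, limma adjusted p = 0.0758), and Mat2b, a subunit of the enzyme that makes S-adenosylmethionine, by 1.05 (SE 0.23, limma adjusted p = 0.102). Of the 10 leading genes on the higher side 7 had a promoter in the RefSeq table. Of these genes 1 held the E-box (Upp1, at 1 of its 3 annotated starts) and 1 the SOX motif (Fastkd2). Such counts, here and for the lower side, are per gene over any of its starts. The shares over all 32851 stretches are per stretch, so the units differ.

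On the lower side no gene passed, and the 10 leading genes were again chosen with 1 sign in all 4 preparations. Clone and accession names were left out of this choice. One of them, AI413582, had a smaller limma p (3.99e-05) than Tcl1 (4.33e-05), at -1.66 (SE 0.32, limma adjusted p = 0.0644). With median centring its limma adjusted p was 0.0303. Another, 5430417L22Rik, was at -1.34 (SE 0.32, limma adjusted p = 0.137). Of the 10 leading genes, only Tcl1, Dusp6 and Egr2 are in the list, read below, of genes that respond to GDNF or FGF or feed back on them. Tcl1, whose protein activates the kinase AKT, stood at 4.69, 5.39, 2.84 and 5.43 in Sox3 or Neurog3 cells, against 5.58, 6.68, 6.09 and 7.09 in cells with neither. Its classes did not overlap, and the lowest value was that of the members of preparation 3 (difference -1.78, SE 0.34, limma adjusted p = 0.0644). Dusp6, the phosphatase that switches off ERK, had 3.12, 4.17, 1.64 and 3.42 in members, against 3.98, 5.07, 5.26 and 5.45 in cells with neither. Here the highest member value exceeded the lowest value of the other class, but the members were lower within each preparation (difference -1.86, SE 0.41, limma adjusted p = 0.102). Egr2, a zinc finger factor that growth factors induce, had 1.36, 1.57, 0.95 and 1.58 in members, against 2.28, 3.62, 2.70 and 2.98 in cells with neither (difference -1.53, SE 0.32, limma adjusted p = 0.0970).

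Thnsl2, a threonine synthase-like enzyme, was lower in members (difference -1.5, SE 0.31, limma adjusted p = 0.0758) and was detected in 14.8 ± 8.83% of them and in 37.6 ± 14.7% of cells with neither. Mt1, a metallothionein that binds zinc and copper, was lower in all 4 preparations, least in preparation 2, at 11.06, 11.47, 10.97 and 11.17 in members against 11.57, 11.60, 11.53 and 11.69 in cells with neither (difference -0.43, SE 0.09, limma adjusted p = 0.0758). The remaining leading genes, given by their differences, were Lmna, which encodes nuclear lamins A and C (-1.25), Chrna4, a nicotinic receptor subunit (-1.35), Syngr2, a vesicle membrane protein whose exons overlap Gm20708 (-1.17), Inca1, a cyclin-dependent kinase inhibitor (-1.45), and Cml1, of the camello-like acetyltransferases (-0.77), with limma adjusted p from 0.110 for Lmna to 0.179 for Cml1. Lmna and Syngr2 differed most in preparation 3. Promoters in the RefSeq table were found for 9 of the 10 leading lower genes, with 2 SOX motifs, in Thnsl2 and Dusp6, and 0 E-boxes.

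**Figure D3:**
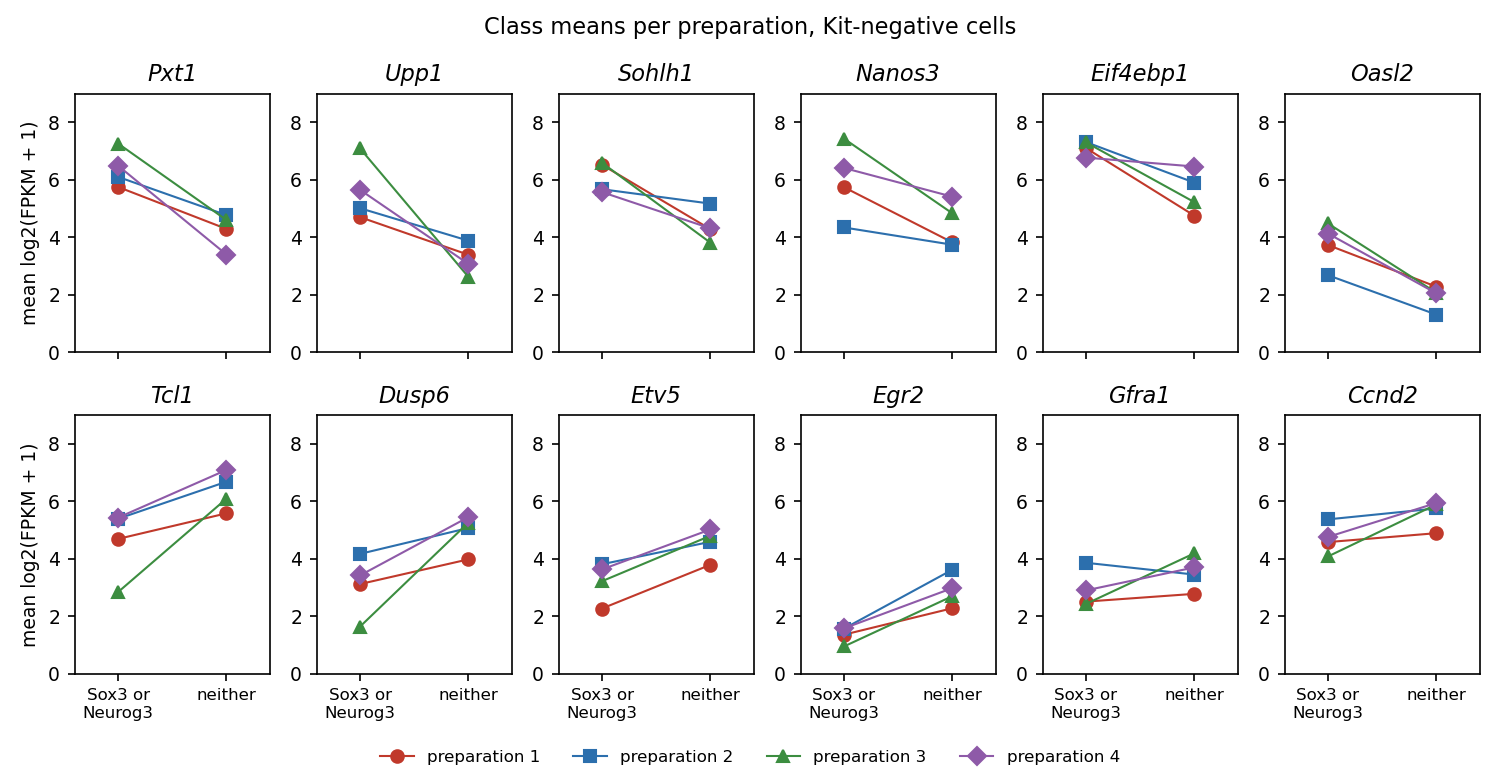
Mean log2(FPKM + 1) of 12 genes in Sox3 or Neurog3 cells (left of each panel) and in cells with neither (right), Kit-negative cells; each line joins the classes of 1 preparation. All 4 lines fall from members to the other class for Pxt1, Upp1, Sohlh1, Nanos3, Eif4ebp1 and Oasl2, and all 4 climb for Tcl1, Dusp6, Etv5, Egr2 and Ccnd2, while Gfra1 has 1 line of opposite slope; of these genes Pxt1 passed the test.

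Gene lists for spermatogonial states were read by their counts at an unadjusted p under 0.05. Over all genes the shares were 4.96% higher and 2.91% lower. The lists were chosen with earlier results of these data known, so their counts are a description and not independent support. A single gene in a list of 10 or 12 is not read as a result about that list. No member of any list passed the adjusted threshold, and Pxt1 is in none. Of 15 tested stem cell genes, 7 were lower and 0 higher at an unadjusted p under 0.05, with a median difference of -0.57. The 7 are Tcl1, Etv5, Lhx1, T, Foxc2, Mcam and Nefm. Etv5, an ETS factor that GDNF induces, stood at 2.27, 3.81, 3.22 and 3.63 in Sox3 or Neurog3 cells and at 3.79, 4.59, 4.80 and 5.02 in cells with neither (difference -1.32, SE 0.34, limma adjusted p = 0.204, lower in 4 of 4 preparations). Lhx1, a LIM homeobox factor and GDNF target, was detected in 8.46 ± 6.67% of members and 26 ± 9.83% of cells with neither. Foxc2, a forkhead factor known from quiescent stem cells, was lower by 0.91 in members (difference -0.91, SE 0.30, limma adjusted p = 0.371), without overlap of the classes.

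Gfra1, the GDNF receptor itself, differed less: 2.51, 3.86, 2.43 and 2.90 in members against 2.78, 3.45, 4.19 and 3.70 in cells with neither (difference -0.60, SE 0.38, limma adjusted p = 0.738), with preparation 2 in the opposite direction, and at 0.21 when classes were standardised for both EGFP brightness and genes detected, an alternative added after seeing the data. It was detected in 56.1 ± 10.5% of members and 66.5 ± 12.1% of cells with neither (SD, n = 4), and Gm16277 overlaps it on the opposite strand. Ret, the co-receptor, was at -0.48 (SE 0.34, limma adjusted p = 0.774). Eomes, a T-box factor of a stem cell subset, was at -0.55 (SE 0.29, limma adjusted p = 0.683) but at 0.12 within EGFP quartiles, and Nanos2, a translational repressor of stem cells, was at -0.32 (SE 0.20, limma adjusted p = 0.738).

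Of 15 genes that respond to GDNF or FGF or feed back on them, 7 were lower and 1 higher at an unadjusted p under 0.05 (median -0.51). The lower ones were Tcl1, Egr2, Dusp6, Etv5, Lhx1, Spry4 and Dusp5, and the higher one was Mycn. Of these, Tcl1, Etv5 and Lhx1 are also in the stem cell list, so the lists are not separate counts. Spry4, an inhibitor of receptor tyrosine kinase signalling, was at -0.92 (SE 0.33, limma adjusted p = 0.449). Among 12 immediate early and dissociation stress genes 1 was higher and 1 lower (median -0.19): Egr1 had 6.86, 6.84, 6.93 and 6.23 in members against 6.24, 6.46, 5.76 and 5.18 in cells with neither (difference 0.81, limma adjusted p = 0.338), and Dusp1, another phosphatase, was at -0.76 (limma adjusted p = 0.633). The measured differences of Egr1 and Egr2, of the same zinc finger family, had opposite signs, and neither gene passed the adjusted threshold.

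Of 19 genes of undifferentiated and progenitor spermatogonia, 5 were higher and 1 lower at an unadjusted p under 0.05 (median 0.26): Upp1, Nanos3, Lin28a, Rarg and Rhox10 against Glis3. Nanos3, an RNA-binding protein of undifferentiated spermatogonia, had 5.74, 4.34, 7.43 and 6.41 in Sox3 or Neurog3 cells, against 3.82, 3.74, 4.83 and 5.41 in cells with neither. The ranges overlapped, but members were higher within every preparation (difference 1.53, SE 0.34, limma adjusted p = 0.102). Lin28a, which blocks maturation of let-7 microRNAs, was higher by 1.01 (SE 0.35, limma adjusted p = 0.412). Rarg, the retinoic acid receptor of progenitors, was detected in 57.1 ± 3.12% of members and 33.1 ± 9.19% of cells with neither (difference 0.60, SE 0.26, limma adjusted p = 0.579). Glis3, a zinc finger factor, was at -0.85 (SE 0.33, limma adjusted p = 0.483).

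Factors shared by undifferentiated spermatogonia differed little between the classes. Zbtb16, which encodes PLZF, was at -0.23 (SE 0.34, limma adjusted p = 0.910) and Sall4, a zinc finger factor, at 0.10 (SE 0.19, limma adjusted p = 0.938), and each was detected in over 90% of the cells of both classes. Cdh1, the adhesion protein E-cadherin, was at 0.22 (SE 0.22, limma adjusted p = 0.857). These values do not show that the classes are equal in them.

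Of 10 tested differentiation genes, 3 were higher and 0 lower at an unadjusted p under 0.05 (median 0.24): Sohlh1, Crabp1 and Dmrt1. Standardised for genes detected per cell, Crabp1 and Dmrt1 had unadjusted limma p of 0.0914 and 0.119, and Sohlh1 had 0.00170. Crabp1, a carrier of retinoic acid, had 6.83, 6.83, 6.86 and 6.88 in members, against 5.51, 6.96, 5.03 and 6.45 in cells with neither (difference 0.87, SE 0.29, limma adjusted p = 0.386). The members were nearly level with each other while the other class ranged widely, and preparation 2 went the opposite way. Dmrt1, a doublesex-related factor that holds spermatogonia back from meiosis, was higher by 0.69 (SE 0.31, limma adjusted p = 0.591). Stra8, which retinoic acid induces before meiosis, was at -0.68 (SE 0.38, limma adjusted p = 0.702) and lower in 3 of 4 preparations, and Sohlh2, the partner of SOHLH1, was at 0.07 (SE 0.39, limma adjusted p = 0.984). Of 12 retinoic acid pathway genes 3 were higher and 0 lower (median 0.18), namely Crabp1, Rarg and Rara, the last a nuclear receptor at 0.62 (SE 0.26, limma adjusted p = 0.555).

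Genes linked to Neurog3 elsewhere showed little. Of 19 genes known as its targets in pancreas and gut, 4 passed the filter on low values and 0 passed an unadjusted p under 0.05 (median 0.03). Of 11 tested Delta-Notch genes, which restrain Neurog3 in pancreas, 0 passed either (median -0.04). Among 10 other SOX, E protein and bHLH genes Id3, an inhibitor of bHLH factors and a relative of Id4, was the 1 that was lower, with 1.03, 2.43, 1.54 and 2.23 in members against 1.90, 2.45, 2.51 and 4.63 in cells with neither (difference -1.07, SE 0.37, limma adjusted p = 0.420). Preparation 2 hardly differed and preparation 4 differed most. Mcam was the 1 gene of 12 surface proteins used in sorting that differed at an unadjusted p under 0.05, at -1.05 (SE 0.36, limma adjusted p = 0.416).

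Cell cycle genes were uneven. Of 18 G2 and mitosis genes, 3 were higher and 0 lower at an unadjusted p under 0.05 (median 0.24). Aurka, a mitotic kinase, had 3.43, 4.29, 2.86 and 4.64 in Sox3 or Neurog3 cells, against 2.07, 2.65, 2.00 and 3.29 in cells with neither (difference 1.30, SE 0.34, limma adjusted p = 0.226). Ccnb1, a mitotic cyclin, was higher by 1.08 (SE 0.30, limma adjusted p = 0.338) and Birc5, which encodes survivin, by 0.91 (SE 0.36, limma adjusted p = 0.506). The 17 S phase genes gave 0 in either direction (median -0.05), and Mki67, the proliferation marker, was at 0.07 (SE 0.34, limma adjusted p = 0.979). Of 12 G1 genes Cdkn1b, a cyclin-dependent kinase inhibitor, was higher by 0.69 and Ccnd2, a D-type cyclin, was lower: Ccnd2 had 4.58, 5.37, 4.08 and 4.76 in members against 4.89, 5.75, 5.89 and 5.94 in cells with neither (difference -0.92, SE 0.32, limma adjusted p = 0.426).

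In the remaining lists, Tet3, which oxidises methylated cytosine, was the 1 of 5 tested DNA methylation genes that was higher at an unadjusted p under 0.05 (0.63, SE 0.24, limma adjusted p = 0.478; classes without overlap). Eif4ebp1 was the 1 such gene of 12 in the mTORC1 list. Of 15 meiotic prophase genes 3 were higher and 0 lower (median 0.18): Sycp3 and Syce3, of the synaptonemal complex, at 0.41 and 0.64, and Hormad1, of the chromosome axis, at 0.75, with limma adjusted p from 0.540 to 0.612. The lists of other testis cell types had 0 to 5 tested genes each, of which 0 passed an unadjusted p under 0.05.

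**Figure D4:**
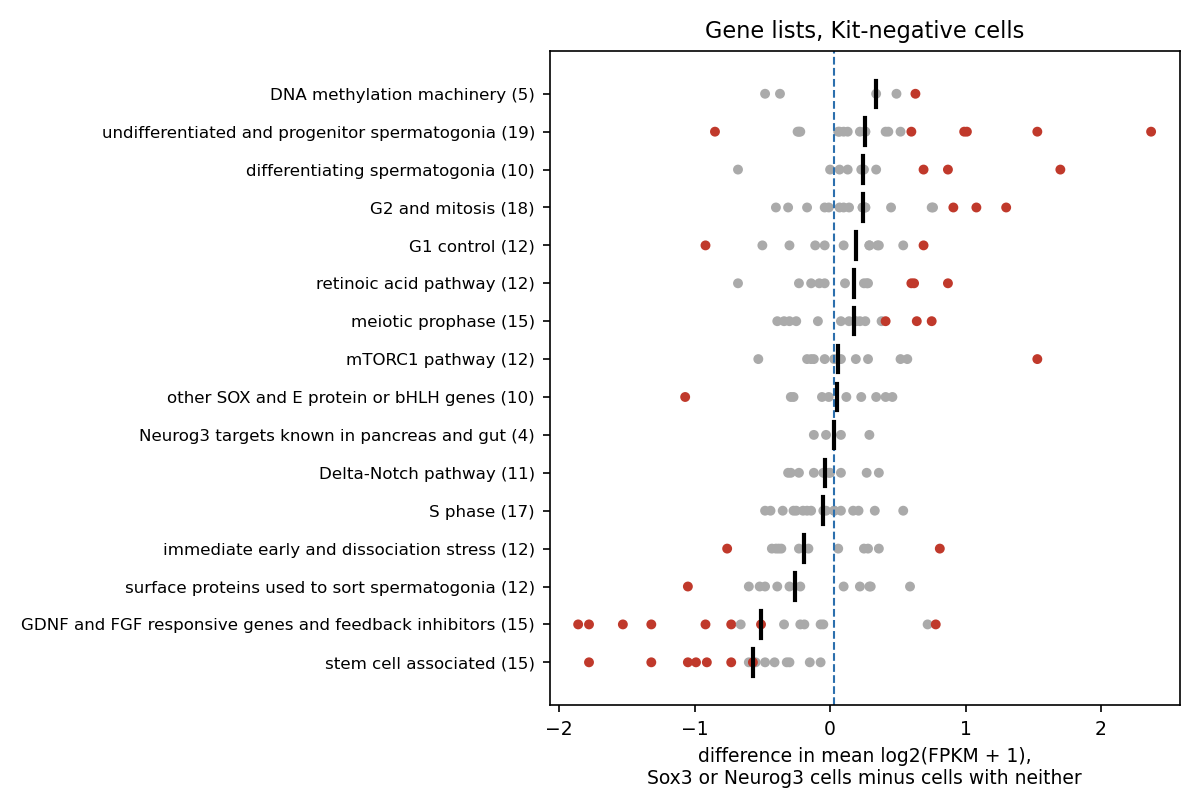
Difference in mean log2(FPKM + 1), Sox3 or Neurog3 cells minus cells with neither, for each tested gene (point) of 16 lists, with the number of tested genes in brackets; red points have an unadjusted limma p under 0.05, black bars are list medians and the dashed line is the median of all 10408 genes. The medians run from 0.34 for DNA methylation genes to -0.57 for stem cell genes.

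Because members were more frequent among dim cells, the classes were also compared within EGFP quartiles. Then 0 of 10408 genes passed (smallest limma adjusted p 0.265; 610 higher and 149 lower at an unadjusted p under 0.05). Tcl1 moved to -0.95, Dusp6 to -1.18 and Egr2 to -0.99, and the stem cell list's median to -0.27. Upp1 was then at 1.84, Nanos3 at 1.23, Eif4ebp1 at 1.45 and Sohlh1 at 1.77. Among the other leading lower genes Lmna was at -1.10, Inca1 at -1.33, Mt1 at -0.32 and Cml1 at -0.82. Thnsl2 and Chrna4 were at -1.13 and Syngr2 at -0.71. Of the lower list genes, Lhx1, Mcam, Glis3, Ccnd2 and Dusp1 then had unadjusted limma p from 0.129 (Lhx1) to 0.307 (Dusp1). Tcl1, Egr2, Dusp6, Etv5, Foxc2 and Id3 stayed under 0.05. On the higher side Rara, Rarg, Cdkn1b, Tet3 and Syce3 had 0.0534 (Rara) to 0.277 (Syce3). The other higher list genes with values above stayed under 0.05. Each quartile counted equally within a preparation, though Q1 of preparation 3 held 1 member and Q3 of preparations 1 and 3 held 2 each. These standardised values therefore rest in part on very few cells. With classes standardised for genes detected per cell, 0 genes passed as well (smallest limma adjusted p 0.143, with 332 higher and 443 lower at an unadjusted p under 0.05). Of the higher list genes with values above, Crabp1, Dmrt1, Tet3, Birc5, Cdkn1b, Syce3 and Hormad1 then had unadjusted limma p from 0.0551 (Tet3) to 0.297 (Birc5). Upp1, Nanos3, Lin28a, Rarg, Rara, Sohlh1, Eif4ebp1, Egr1, Aurka, Ccnb1 and Sycp3 stayed under 0.05. The part of EGFP brightness or of depth in each gene's difference was not tested further.

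The same contrast was made in the 93 cells with Kit at 1 FPKM or more, which the rule did not use. Among them, 0 of 10408 genes passed (smallest limma adjusted p 0.793; 619 at an unadjusted p under 0.05), and the median difference over all genes was 0.14. Genes detected per Kit-positive cell were 6190 ± 974 in Sox3 or Neurog3 cells and 5666 ± 892 in cells with neither (SD, n = 4; higher in 4 of 4 preparations), and their part in that median was not tested. Lin28a was at 1.87 and Nanos3 at 1.46 there, each higher in at least 3 of 4 preparations. Pxt1 was at 0.41, Upp1 at 0.06, Eif4ebp1 at -0.14, Tcl1 at -0.04 and Dusp6 at 0.26. The leading genes of the Kit-positive contrast by unadjusted p were Gtf3c6 (1.94), Txn1 (1.69) and Sh3bgrl3 (1.18) on the higher side and Mob2 (-1.65), Glis1 (-1.49) and Tcp11l2 (-1.26) on the lower side.

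A test of the difference between the Kit-negative and Kit-positive contrasts passed for 0 of 10408 genes (limma interaction, smallest adjusted p 0.833; 570 at an unadjusted p under 0.05). The difference of differences was 1.73 (SE 0.68) for Pxt1, 1.68 (SE 0.43) for Eif4ebp1 and -2.12 (SE 0.77) for Dusp6, each with an adjusted p of 0.890. No gene was therefore shown to depend on the Kit state. Those with the smallest interaction p included Rnf130, a ubiquitin ligase, at -0.95 in Kit-negative and 1.91 in Kit-positive cells, and Acaa1a, a peroxisomal thiolase, at 0.92 and -0.93.

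**Figure D5:**
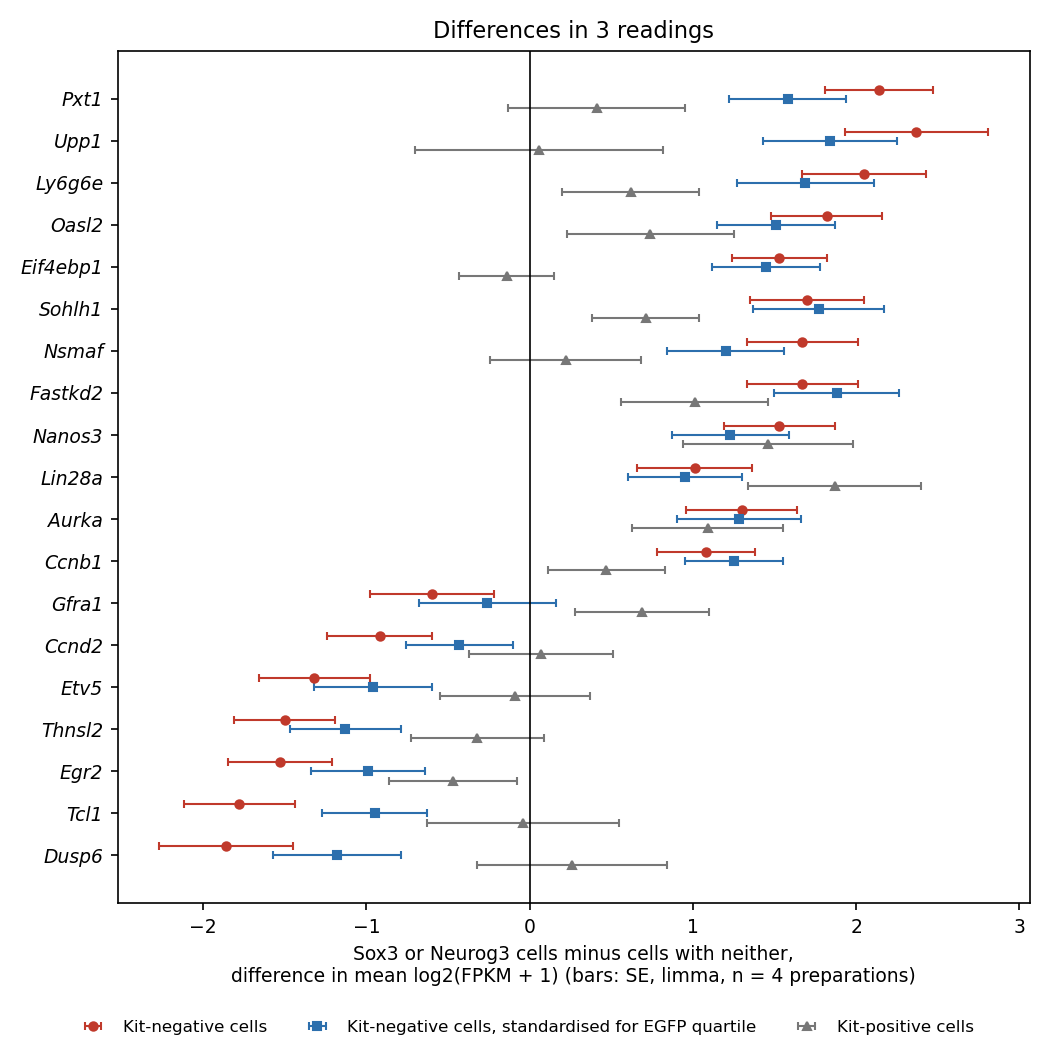
Difference in mean log2(FPKM + 1), Sox3 or Neurog3 cells minus cells with neither, with limma standard errors (n = 4 preparations) for 19 genes in Kit-negative cells (red), in Kit-negative cells standardised for EGFP quartile (blue) and in Kit-positive cells (grey). Nanos3 lies at 1.53, 1.23 and 1.46 in the 3 readings, Upp1 at 2.37, 1.84 and 0.06, and Tcl1 at -1.78, -0.95 and -0.04.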

How the data were processed

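The deposited table holds one value per gene and cell for 300 cells and 23354 gene names, of which 5602 were at 0 in every cell. Its header names no unit; the values were taken as FPKM made by the authors with Cufflinks, which the submitters' processing notes name with TopHat, Picard and FastQC for mm10 and GRCm38, without versions. An FPKM of 0 is a listed 0 and need not mean absence, and no count model was applied. Per the labels' protocols, cells were captured on C1 chips, and doublets and dead cells were excluded by imaging. The number in each title was read as the preparation, the replicate (n = 4). The classes of a preparation share mice and chip, and this pairs them; their deviations from the class means correlated at 0.0948 to 0.385 across genes.

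Mean log2(FPKM + 1) per class and preparation was fitted with limma 3.58.1 (R 4.3.3; trend, robust; preparation as block) over the 10408 genes that reached 1 FPKM in 30 or more cells, without Sox3, Neurog3 and Kit, with Benjamini-Hochberg adjustment. Such differences understate the change of low genes. Standardisation averaged classes over EGFP quartiles, or over 3 bins of genes detected, that held both classes. Fragments per cell (274496 to 1528458, median 756834) were estimated from the value that 1 fragment takes in 6468 genes with 1 transcript above 1500 bases. Slopes were tested over 331776 relabelings. The contrast of Sox3-alone with Neurog3-alone cells was not run, since only 1 preparation held 3 or more Neurog3-alone cells. Named genes are a panel of 20 and the 10 per direction with the smallest p and 1 sign in all preparations. To these come up to 4 per list, up to 3 per direction for the Kit-positive and 2 for the interaction contrast. Predicted genes and clone, accession or date-like names were skipped, except that AI413582 and 5430417L22Rik are given on the lower side. List members outside this rule are named as counts only, except Spry4. Members, 23 lists and panel were chosen with earlier results of these data known. Id4 is not analysed here.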

Additional observations from a re-analysis of the deposited data

Results flagged for a closer look

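In 3 of 55 series of within-preparation differences 1 preparation stood far from the other 3, a rate that chance reaches for about 1 in 20 series. For Mt1 the difference in preparation 2 was -0.13, against -0.56 to -0.52 in the others. Lmna differed most in preparation 3, by -1.83, against -1.09 to -1.04 elsewhere. Syngr2 had -1.98 in preparation 3 and -1.0 to -0.84 in the others. Preparation 3 held 13 Sox3 or Neurog3 cells, the fewest.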

How the results depend on the processing

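The count of genes passing, 1, was 0 without the replicate block, with pseudocount 10, with log2 of mean FPKM and with no or a stricter filter. It was also 0 with classes standardised for EGFP quartile or genes detected and with Kit and the class with neither gene listed at 0. The count was again 0 with only the 21 Neurog3 cells, with or without Sox3, as members and without the 3 and 5 cells matching other types. It was 1 with pseudocount 0.1, 4 with a class threshold of 5 FPKM, 4 with Sox3 cells and 12 with median centring (7 higher, 5 lower). Leaving out a preparation gave 0 to 4: 0 without preparation 1 or 3, 4 without preparation 2 and, without preparation 4, 1 gene that was Eif4ebp1 and not Pxt1. An alternative chosen after seeing the data, standardising for dimmer or brighter EGFP and genes detected together, gave 0. Pxt1 passed in 5 of 19 alternatives and kept its direction in 19 (0.97 to 2.79; adjusted p 0.00385 to 0.862). The slope over quartiles ran from -14.7 to -9.35 and passed in its 7 alternatives; genes detected ran from 71.5 to 412. The Kit-positive and interaction contrasts gave 0 in every alternative, also without the replicate block.

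Direction turned for Gfra1 (0.21) and Eomes (0.12) when standardised for dimmer or brighter EGFP and genes detected, for Eomes (0.12) also for EGFP quartile, for Sall4 (-0.05) and Cdh1 (-0.11) with log2 of mean FPKM, and on leaving out a preparation for Zbtb16 (-0.58 to 0.06), Cdh1 (-0.0025 to 0.35), Sohlh2 (-0.35 to 0.53) and Mki67 (-0.12 to 0.35). It turned with pseudocount 10 for Sohlh2 (-0.05), at 5 FPKM for Stra8 (0.20) and Mki67 (-0.31), with Sox3 cells for Sohlh2 (-0.02) and Mki67 (-0.01), with Neurog3 cells for Zbtb16 (0.49), Stra8 (0.68) and Mki67 (-0.20), and for Mki67 when standardised for genes detected (-0.23) or listed at 0 (-0.12). The cause was not tested. Values near 1 FPKM rest on few fragments, which limits the precision of class membership there.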
